A study of Mus musculus with 6 samples.

Results

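The contractile genes of airway smooth muscle were followed in the mesenchyme of the mouse trachea, 48 h after injury by inhaled sulfur dioxide (SO2; 48 h post injury, 48 hpi) and without injury. The set was a list of 37 genes that encode the contractile filaments, the enzymes that switch them on and off, their anchors, and the receptors and channels of the muscle cell. A gene was found through the array annotation and took the values of 1 probe set, that with the highest mean over all samples. Of the 37 genes, 36 were measured, through 79 probe sets, among 18193 genes and 45101 probe sets in all, and Chrm2, a muscarinic receptor, was not analysed here.

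Adult male C57Bl/6 mice were used throughout. The 48 hpi group had breathed 500 ppm SO2 for 4 h, and the control group was labelled as normal. Each group held 3 samples, and each sample pooled the tracheas of 4 mice. After 23 min in dispase the epithelium was peeled off, and the mesenchyme that remained was used whole. Such tissue can hold the smooth muscle of vessels beside that of the airway, with fibroblasts, cartilage, nerves and immune cells. Genes of epithelium and of striated muscle were also detected in it. In controls Scgb1a1 of secretory cells was at 12.50 to 13.46 log2 units and Actc1, cardiac alpha-actin, at 9.96 to 11.56. In bulk tissue, fewer cells of a type and less RNA per cell cannot be told apart. Values are log2 expression levels after robust multi-array analysis (RMA), which scales the arrays to a common distribution, so that 1 unit is a doubling. The test was limma's moderated test across all probe sets, with Benjamini-Hochberg adjustment over all of them, and a gene was called at an adjusted p under 0.05. Samples of the 2 groups that carried the same replicate number deviated together, so the test was also run with that number as a block, and its result is given where it changed the call of a member or the count of a list.

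Airway smooth muscle forms the trachealis band that joins the ends of the cartilage rings, and its tone sets the width of the airway. Calcium bound to calmodulin activates myosin light chain kinase, the phosphorylated smooth muscle myosin pulls on filaments of smooth muscle actin, and myosin phosphatase reverses the step. Genes of this apparatus are transcribed together in mature muscle by serum response factor (SRF) and its coactivator myocardin, through a DNA element named the CArG box.

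That element was searched for in the promoters of the members, because both factors are members themselves. RefSeq promoter windows of build GRCm38.p6, from 250 bases before the start site to 50 after it, were found for 32 members; Actg2, Myh11, Myocd and Tagln had none. Only the strict form was searched, CC, then only A or T, then GG, so a box with any other base was not counted. A CArG box of this form, whose pattern reads the same on both strands, lay in the window of 3 of these 32 genes (9.38%). The share was 488 of 27025 among all genes with a window (1.81%). The 3 are Myl9, the regulatory light chain of smooth muscle myosin, Cnn2, an actin-binding calponin that non-muscle cells also make, and Srf itself. Their windows are shown with each box in capitals, as a description of these letters and not of binding. Myl9 lies on the plus strand at chr2:156775214-156775513, with the box starting 161 bases upstream of the start site. Cnn2 lies on the plus strand at chr10:79988350-79988649, with the box 56 bases upstream. Srf lies on the minus strand at chr17:46556113-46556412 and holds 2 boxes, of which the first starts 82 bases upstream.
Myl9: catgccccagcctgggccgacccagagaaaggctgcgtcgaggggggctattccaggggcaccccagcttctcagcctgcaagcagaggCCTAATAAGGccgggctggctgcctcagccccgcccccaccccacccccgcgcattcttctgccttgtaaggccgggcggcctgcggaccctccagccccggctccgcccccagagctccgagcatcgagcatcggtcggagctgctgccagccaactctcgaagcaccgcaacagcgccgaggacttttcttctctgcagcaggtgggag
Cnn2: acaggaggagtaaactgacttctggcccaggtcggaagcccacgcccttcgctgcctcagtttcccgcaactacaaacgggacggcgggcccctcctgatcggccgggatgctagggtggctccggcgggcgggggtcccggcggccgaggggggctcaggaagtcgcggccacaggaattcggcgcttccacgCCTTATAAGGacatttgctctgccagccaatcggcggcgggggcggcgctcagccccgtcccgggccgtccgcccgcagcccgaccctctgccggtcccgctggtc
Srf: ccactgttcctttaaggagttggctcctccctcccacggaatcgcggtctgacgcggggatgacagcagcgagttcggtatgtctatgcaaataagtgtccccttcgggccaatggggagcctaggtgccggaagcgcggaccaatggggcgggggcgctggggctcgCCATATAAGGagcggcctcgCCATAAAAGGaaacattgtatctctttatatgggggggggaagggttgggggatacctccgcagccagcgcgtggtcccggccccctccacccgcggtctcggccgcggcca

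The defining smooth muscle genes stood well above the level of dim probe sets in both groups, and none was called between them. Of the 36 members, 35 had a mean level above 4.74, the 40th percentile of all probe sets and here the bound for a dim probe set; Chrm3, the muscarinic receptor through which acetylcholine contracts the airway, was the exception, at 3.52 to 3.70 in the 48 hpi samples and 3.73 to 3.92 in controls. After injury 0 members were called higher, where 4.97% of all genes were, and 2 members (5.56%) were called lower, where 1.24% of all genes were. At an unadjusted limma p under 0.05 4 members (11.1%) were higher, where 14.6% of all genes were, and 5 (13.9%) lower, where 9.29% were. Centring the arrays on their medians gave 1 higher and 1 lower, and cyclic loess 0 higher and 4 lower. The median log2 difference of the members, 48 hpi minus control, was 0.03, beside -0.01 over all genes, with 20 members above 0 and 16 below. Only 1 member, Pcp4, differed by more than 1 log2 unit. The 95% confidence interval of the difference lay within 1 unit either way for 23 members and included 0 for 27.

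**Figure D1:**
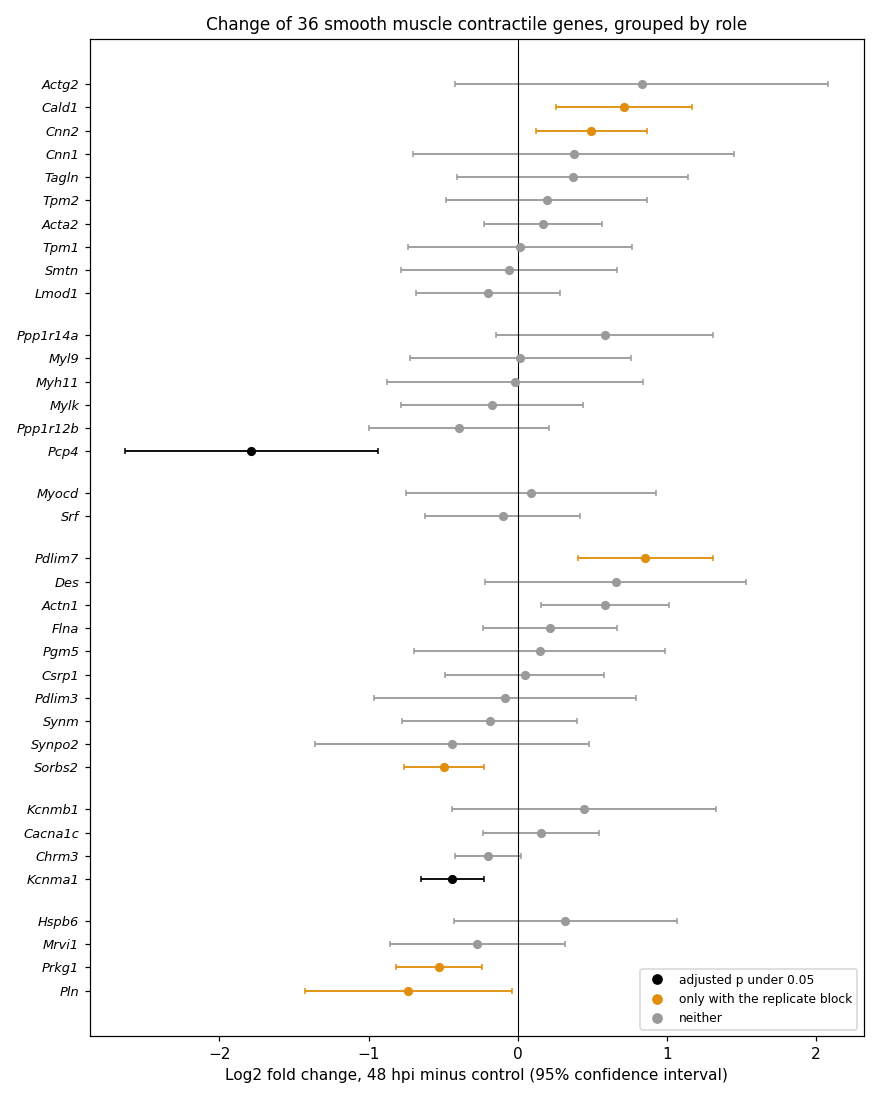
Log2 difference in expression between 48 hpi and control mesenchyme (x axis, log2 RMA units) for each of the 36 measured genes (y axis), grouped by role, with bars for the 95% confidence interval of the limma fit and colors for the genes called (black without the block, orange only with it). Most intervals span 0, Pcp4 stands at -1.79, and the genes called lower lie among regulators, anchors and channels rather than among the actins and myosin.

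With the replicate block, 3 members (8.33%) were called higher, where 8.77% of all genes were, and 5 (13.9%) lower, where 4.64% were. The members called higher were Cnn2, Cald1 and Pdlim7, and those called lower were Pcp4, Kcnma1, Prkg1, Sorbs2 and Pln. The values of all 3 samples of 48 hpi lay above all control values for 4 members (11.1%), where 17.2% of all genes did so, and below them for 5 (13.9%), where 13.1% did. Those above were Cnn2, Cald1, Pdlim7 and Actn1, and those below were Pcp4, Kcnma1, Prkg1, Sorbs2 and the dim Chrm3. In the other 27 members the groups overlapped.

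The thin filament carries actin and the proteins wound along it, and 0 of its 10 members were called without the block. At an unadjusted limma p under 0.05, 2 were higher and 0 lower, where 14.6% and 9.29% of all genes were. Acta2, smooth muscle alpha-actin and the usual marker of the tissue, measured 13.29, 13.62 and 13.42 in the 48 hpi samples, against 13.35, 13.53 and 12.93 in controls. The groups overlapped, the difference was 0.17 ± 0.17 (SE; 95% confidence interval -0.23 to 0.57), and the adjusted p was 0.635. Its 3 probe sets differed by -0.21 to 0.49, and the one used here is of a type that can also detect related transcripts, so the other actins may share it. Tagln, transgelin or SM22, an actin-binding protein of the same cells, measured 13.02, 13.32 and 12.83 in 48 hpi samples, against 12.83, 13.31 and 11.93 in controls, with a difference of 0.37 ± 0.33 (adjusted p = 0.596). Cnn1, calponin 1, which restrains the myosin ATPase, measured 11.27, 11.64 and 10.97 in 48 hpi samples, against 11.27, 11.70 and 9.80 in controls, a difference of 0.38 ± 0.46 (adjusted p = 0.710). In both genes control replicate 3 was the lowest of all 6 samples. Actg2, the gamma smooth muscle actin, had the widest control group, with means of 11.14 ± 0.38 at 48 hpi and 10.31 ± 1.16 in controls (SD, n = 3 each).

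Cnn2 and Cald1 were the thin filament genes whose groups were apart. Cnn2 measured 10.17, 10.08 and 9.99 in 48 hpi samples, against 9.89, 9.60 and 9.27 in controls. The difference was 0.49 ± 0.16, with an adjusted p of 0.145, and of 0.0334 with the replicate block. Cald1, caldesmon, which blocks the myosin sites on actin in muscle and also has a non-muscle form, measured 11.25, 11.58 and 11.65 in 48 hpi samples, against 10.77, 11.14 and 10.43 in controls. Its difference was 0.71 ± 0.19, a 1.64-fold higher level (adjusted p = 0.0989, and 0.0380 with the block), and all 5 of its probe sets lay above 0, at 0.14 to 0.93. Which form each probe set detects was not analysed here. Tropomyosins Tpm1 and Tpm2, which lie along the actin groove, differed by 0.02 ± 0.32 and 0.19 ± 0.29. Lmod1, leiomodin, which nucleates actin filaments, differed by -0.20 ± 0.21, and Smtn, smoothelin, found in contractile muscle, by -0.06 ± 0.31.

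Of 6 members listed with myosin and its phosphorylation, 1 was called lower, Pcp4, where 1.24% of all genes were. Myh11, Myl9, Mylk, Ppp1r12b and Ppp1r14a were called in neither fit. Pcp4, a small protein that binds calmodulin and alters its exchange of calcium, measured 7.19, 7.16 and 5.99 in 48 hpi samples, against 8.82, 8.83 and 8.04 in controls. Every 48 hpi value lay below every control value, and within each group replicate 3 was lowest. The mean was 6.78 ± 0.68 at 48 hpi and 8.56 ± 0.46 in controls (SD, n = 3 each), a difference of -1.79 ± 0.36, or a 3.45-fold lower level (limma adjusted p = 0.0412, and 2.9e-04 with the block). Leaving out any 1 of the 6 samples raised the adjusted p to between 0.0616 and 0.125, while the difference stayed between -2.05 and -1.39; over all alternatives that p ran up to 0.208.

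The motor itself was not called. Myh11, the heavy chain of smooth muscle myosin, measured 11.12, 11.79 and 11.12 in 48 hpi samples, against 11.49, 12.02 and 10.57 in controls. The 48 hpi values lay inside the range of the controls, and the difference was -0.02 ± 0.36 (95% confidence interval -0.87 to 0.84, adjusted p = 0.986). Myl9 differed by 0.02 ± 0.32, and Mylk, the myosin light chain kinase, by -0.17 ± 0.26. Ppp1r12b, a targeting subunit of myosin phosphatase, differed by -0.39 ± 0.26 and Ppp1r14a, known as CPI-17, which inhibits that phosphatase, by 0.58 ± 0.31 (adjusted p = 0.460 and 0.367). Ppp1r14a was at 8.82 to 9.04 in 48 hpi samples, against 7.56 to 8.83 in controls, so the groups overlapped by 1 control sample.

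Neither transcriptional regulator was called. Myocd, myocardin, measured 7.42, 7.64 and 7.03 in 48 hpi samples, against 7.87, 7.52 and 6.44 in controls, a difference of 0.09 ± 0.36 (adjusted p = 0.925). Srf measured 8.36, 8.60 and 8.31 in 48 hpi samples, against 8.91, 8.66 and 8.02 in controls, a difference of -0.10 ± 0.22 (adjusted p = 0.847). In both, the controls spanned the 48 hpi values.

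**Figure D2:**
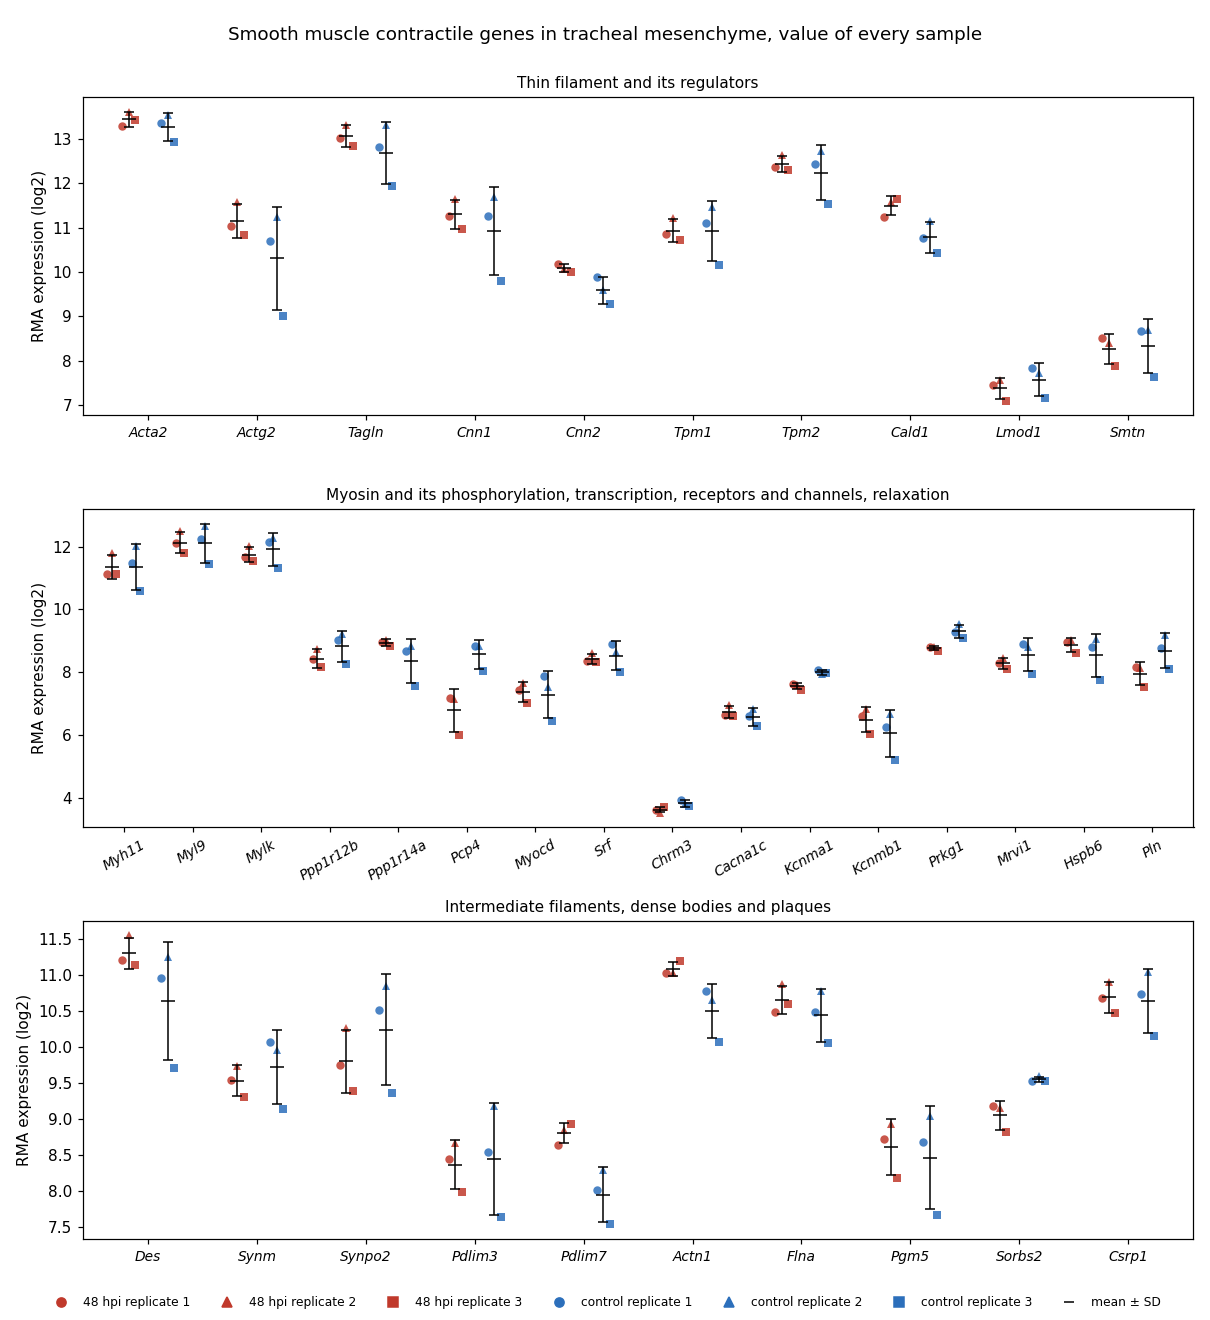
Log2 RMA expression (y axis) in every sample for the 36 genes in 3 panels by role, 48 hpi samples (red) left of controls (blue), with 1 symbol per replicate number and the mean ± SD of each group. Acta2, Myh11, Tagln, Cnn1, Des, Myocd and Srf overlap between the groups, with control replicate 3 the lowest control in each, whereas Pcp4 and Kcnma1 do not overlap.

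Intermediate filaments, dense bodies and membrane plaques anchor the actin filaments and pass force to the cell surface, and their 10 members went both ways. Des, desmin, the muscle intermediate filament protein, measured 11.21, 11.55 and 11.14 in 48 hpi samples, against 10.96, 11.25 and 9.71 in controls, a difference of 0.66 ± 0.37 (adjusted p = 0.396) with overlapping groups. Its other, far dimmer probe set was apart, at 5.05 to 5.16 in 48 hpi samples, against 4.49 to 4.82 in controls. That difference was 0.45 ± 0.11 (limma adjusted p = 0.0651, and 0.0409 with the block). Pdlim7, Enigma, a PDZ and LIM domain protein of actin anchorage, measured 8.65, 8.85 and 8.93 in 48 hpi samples, against 8.02, 8.30 and 7.54 in controls. The groups did not overlap, and the level was 1.81-fold higher at 48 hpi (difference 0.86 ± 0.19, adjusted p = 0.0569, and 0.0243 with the block). Actn1, alpha-actinin 1, which crosslinks actin in dense bodies, was also apart, at 11.03 to 11.20 in 48 hpi samples, against 10.08 to 10.78 in controls. Its difference of 0.58 ± 0.18 was not called in either fit (adjusted p = 0.141, and 0.0744 with the block), whereas its probe set with the next highest mean was called (0.64 ± 0.13, adjusted p = 0.0460).

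Sorbs2, an adaptor that links actin structures to signaling proteins, went the other way. It measured 9.18, 9.16 and 8.82 in 48 hpi samples, against 9.53, 9.59 and 9.53 in controls. The controls differed by less than 0.1 from each other, all 48 hpi values were below them, and the difference was -0.49 ± 0.12 (adjusted p = 0.0638, and 0.0276 with the block). Its 4 probe sets ranged from -0.78 to -0.02. The remaining anchoring genes were not called in either fit: synemin (Synm) differed by -0.19, the actin bundler Synpo2 by -0.44, Pdlim3 by -0.08, filamin A (Flna) by 0.22, the plaque protein Pgm5 by 0.15 and the LIM protein Csrp1 by 0.05. The 4 probe sets of Synpo2 disagreed, at -0.44 to 0.45.

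Of the receptors and channels, 1 of 4 members was called lower, where 1.24% of all genes were. Kcnma1, the pore of the large-conductance calcium-activated potassium channel, which opposes contraction by hyperpolarizing the cell, measured 7.62, 7.60 and 7.45 in 48 hpi samples, against 8.07, 7.95 and 7.96 in controls. The groups did not overlap, and the difference was -0.44 ± 0.09, a 1.36-fold lower level (limma adjusted p = 0.0432, and 0.0253 with the block). All 5 of its probe sets lay below 0, at -0.94 to -0.23. Leaving out any 1 sample raised the adjusted p to between 0.0879 and 0.160, and centring the arrays on their medians raised it to 0.0718; over all alternatives it ran from 0.0253 to 0.336. Kcnmb1, the beta subunit that tunes the same channel to calcium in smooth muscle, differed by 0.44 ± 0.38 (adjusted p = 0.575), Cacna1c, the pore of the L-type calcium channel, by 0.16 ± 0.17, and the dim Chrm3 by -0.20 ± 0.09 (adjusted p = 0.309).

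The last 4 members act in relaxation through cyclic nucleotides and in calcium uptake. Without the block 0 of them were called, and with it 2 were called lower, where 4.64% of all genes were. The same 2 were lower at an unadjusted limma p under 0.05, where 9.29% of all genes were. Prkg1, the cGMP-dependent protein kinase through which nitric oxide relaxes muscle, measured 8.82, 8.81 and 8.69 in 48 hpi samples, against 9.27, 9.53 and 9.10 in controls. The groups were apart, with a difference of -0.53 ± 0.12 (adjusted p = 0.0638, and 0.0205 with the block), and its other probe set lay farther below 0. Pln, phospholamban, the inhibitor of the calcium pump of the sarcoplasmic reticulum, measured 8.18, 8.14 and 7.54 in 48 hpi samples, against 8.77, 9.19 and 8.09 in controls. Only control replicate 3 fell within the range of the 48 hpi samples; the difference was -0.73 ± 0.30, with an adjusted p of 0.238, and of 0.0146 with the block, and its 3 probe sets lay between -0.73 and -0.36. Mrvi1, a substrate of the kinase that Prkg1 encodes, at the calcium release channel, differed by -0.27 ± 0.25, and Hspb6, a small heat shock protein phosphorylated during relaxation, by 0.32 ± 0.32.

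The members shared a pattern across the samples. Control replicate 3 was the lowest control for 35 of the 36 members (97.2%), against 36.7% of all genes, and the lowest of all 6 samples for 28 (77.8%, against 20.4% of all genes). Within the 48 hpi group, replicate 3 was lowest for 30 members (83.3%, against 32.5%). Replicate 2 was the highest of its group for 25 members at 48 hpi and for 27 in controls (69.4% and 75.0%, against 22.4% and 28.1% of all genes). Replicate 3 minus the mean of replicates 1 and 2 had a median over members of -0.33 log2 units at 48 hpi and -0.90 in controls, where all genes had medians of 0.003 and -0.02. In the controls this gap ran from -1.96 for Actg2 to -0.04 for Sorbs2.

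**Figure D3:**
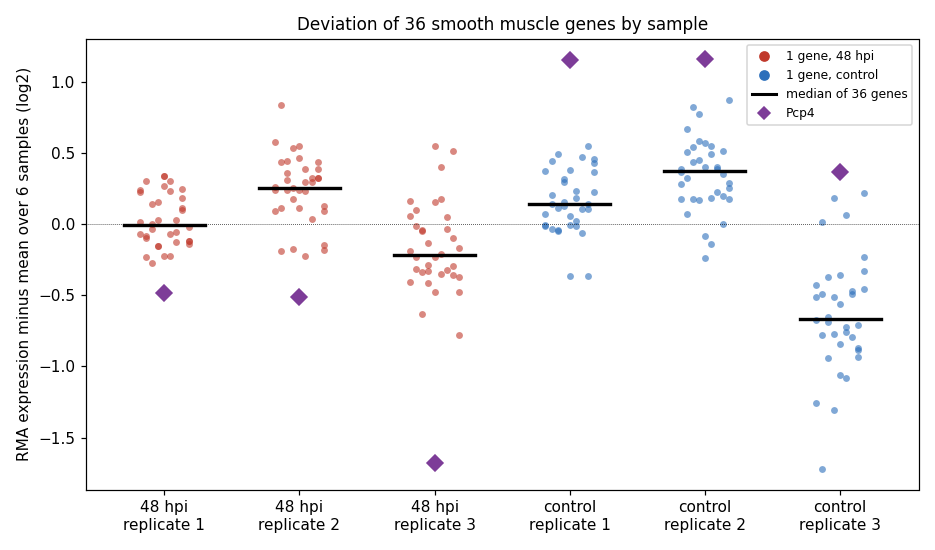
Log2 RMA expression minus the gene's own mean over the 6 samples (y axis) in each sample (x axis), 1 point for each of the 36 genes, with a bar for their median and a diamond for Pcp4. Control replicate 3 lies below the other samples for most genes, and replicate 3 is also the lowest 48 hpi sample. Pcp4 divides by group, and replicate 3 is its lowest sample within each group as well.

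The spread between samples of a group was wider in the members than in most genes. The median within-group SD of the members was 0.43, against 0.13 for all genes; 34 members were above that all-gene median and 28 above the 90th percentile of all genes. For 30 members the range of the 3 controls was wider than the difference between the groups. The mean of 8 smooth muscle markers, all of them members (Acta2, Myh11, Tagln, Cnn1, Des, Lmod1, Smtn and Myocd), was 10.41, 10.69 and 10.19 in 48 hpi samples, against 10.54, 10.72 and 9.52 in controls. That is 10.43 ± 0.25 at 48 hpi and 10.26 ± 0.65 in controls (SD, n = 3 each), a difference of 0.17, which became -0.20 without control replicate 3. Without that sample the median difference of all members was -0.29, with 10 above 0 and 26 below, and Acta2, Tagln, Cnn1, Tpm1, Tpm2, Myl9, Myocd, Pgm5, Csrp1 and Hspb6 changed sign; without control replicate 2 the median was 0.29.

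Some genes of striated muscle were lowest in the same samples as the members, and others were not. The brighter ones, Tnni2, Tnnt3, Ckm, Casq1, Actc1 and Tnnt2, were lowest in replicate 3 of both groups. In controls their gap of replicate 3 ran from -1.99 for Tnnt3 to -1.01 for Ckm. In the genes that were not, no value lay above 5.68 (Mb, control replicate 1). Control replicate 3 was the lowest control for 9 of 15 skeletal and 5 of 7 cardiac markers, and 48 hpi replicate 3 the lowest of its group for 9 and 3. The skeletal muscle markers had a log2 summed level of 10.03, 10.48 and 9.80 in 48 hpi samples, against 10.50, 11.05 and 9.55 in controls, and 0 of 15 were called in either direction, also at an unadjusted limma p under 0.05. Their fast myosin heavy chains Myh1, Myh2 and Myh4 were below the dim bound in both groups, with control replicate 3 between the other controls. Tnnt3, a skeletal troponin, measured 7.82, 8.59 and 7.63 in 48 hpi samples, against 8.46, 9.12 and 6.80 in controls, and so had the same low control replicate 3 as Cnn1 and Tagln. Among 7 cardiac markers, 5 were dim, Myh6 included, whereas Actc1, cardiac alpha-actin, measured 10.25, 11.04 and 10.24 in 48 hpi samples, against 11.04, 11.56 and 9.96 in controls. Tnnt2, a cardiac troponin, measured 8.26, 8.28 and 7.41 in 48 hpi samples, against 9.49, 9.84 and 7.97 in controls, a difference of -1.12 ± 0.48 (adjusted p = 0.271, and 0.0136 with the block). It was the 1 cardiac marker called with the block, where 4.64% of all genes were called lower, and 0 were called without it. The part of these genes in the sample pattern was not tested. Markers of pericytes, the other mural cell type, had a log2 summed level of 12.42 to 12.60 at 48 hpi and 12.41 to 12.60 in controls. Among these 9 markers 0 were called without the block and 2, Kcnj8 and Higd1b, were higher with it, where 8.77% of all genes were.

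To describe each gene beside the muscle markers of its own sample, the mean of the 8 markers was subtracted, a step chosen after the sample pattern was seen and given with no test. The median within-group SD of the members was then 0.19. On this scale the groups were apart and higher at 48 hpi for 6 members (16.7%, where 1.58% of all genes were), namely Pdlim7 (0.68), Actg2 (0.66), Des (0.48), Ppp1r14a (0.41), Tagln and Hspb6. They were apart and lower for 10 (27.8%, where 2.54% of all genes were), namely Pcp4 (-1.96), Pln (-0.91), Prkg1 (-0.70), Sorbs2 (-0.67), Synpo2 (-0.61), Ppp1r12b (-0.57), Mrvi1, Mylk, Synm and Tpm1. Of the members apart before the subtraction, Kcnma1, Cnn2, Cald1, Actn1 and the dim Chrm3 overlapped on this scale. Kcnma1 lay at -2.79, -3.09 and -2.74 in 48 hpi samples, against -2.46, -2.77 and -1.56 in controls. The subtraction lowers the spread of genes that follow the markers and adds the spread of the markers to those that do not, so the shares of all genes are not a like background, and a marker is set against a mean that contains it.

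**Figure D4:**
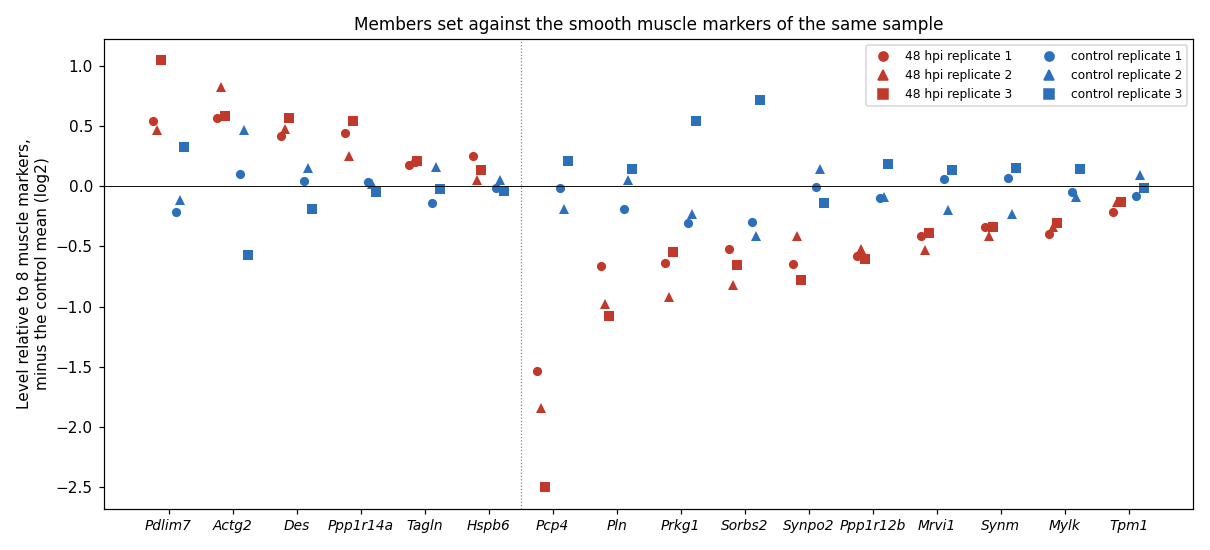
Expression relative to the mean of the 8 smooth muscle markers of the same sample, minus the control mean of the gene (y axis, log2 units), for the 6 higher (left of the dotted line) and 10 lower genes whose groups were apart on this scale, with 48 hpi samples in red and left of controls in blue and 1 symbol per replicate number. Pcp4 lies farthest from its controls, and Tpm1 and Hspb6 lie close to theirs.

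Other genes of the same pathways were described from lists of their own. The 17 further genes of contraction gave 0 calls in either direction, without or with the block, at a median difference of -0.05. Of 11 further genes of relaxation, 0 were called without the block. With it Kcnj8, a pore subunit of the ATP-sensitive potassium channel, was higher (0.68 ± 0.17, limma adjusted p = 0.0781, and 0.0209 with the block). Gucy1a1, a subunit of the nitric oxide receptor, was lower with it (-0.46 ± 0.15, limma adjusted p = 0.147, and 0.0334 with the block). Kcnj8 was also listed among the pericyte markers, so the same rise is counted in both lists. Of 20 further smooth muscle genes, 0 were called without the block, and 1 higher and 3 lower with it, at a median of 0.01. Over all genes the fit with the block called 8.77% higher and 4.64% lower. At an unadjusted limma p under 0.05, 3 contraction genes were higher and 3 lower, and 1 relaxation gene was higher and 2 lower. Among the smooth muscle genes 2 were higher and 1 lower at that p, where 14.6% and 9.29% of all genes were.

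Cytoskeletal relatives of the members that most cells use were measured beside them. Of 13 such genes, 3 rose and 0 fell (5 and 0 with the block), at a median difference of 0.28 and a median within-group SD of 0.11. Over all genes 4.97% were called higher and 1.24% lower, and 8.77% and 4.64% with the block. Tpm4, a non-muscle tropomyosin, measured 11.36, 11.34 and 11.65 in 48 hpi samples, against 10.61, 10.72 and 10.62 in controls (0.80 ± 0.11, limma adjusted p = 0.0106). Tagln2, the widely expressed relative of Tagln, rose by 0.79 ± 0.13 (adjusted p = 0.0215), and Vim, vimentin, named after its value was seen, by 0.73 ± 0.11 (adjusted p = 0.0160). Without control replicate 3, 0 of the 13 were called, and without 48 hpi replicate 3, 1 was. Whether these genes differed from Tpm1, Tpm2 and Tagln in their response was not tested. In the same samples all 12 mitosis genes and all 7 macrophage markers rose, with median differences of 3.08 and 1.69, while 2 of 8 fibroblast, 1 of 7 chondrocyte and 1 of 6 nerve markers fell and 0 of 9 epithelial markers were called (1 lower at an unadjusted limma p under 0.05). With the block, 3 fibroblast markers fell and 1 rose, 4 chondrocyte markers fell, and 1 epithelial marker fell, the secretory cell gene Scgb1a1 (-2.57 ± 0.82, adjusted p = 0.146, and 0.0146 with the block). The gene of the nerve list that fell, in both fits, was S100b (-0.57 ± 0.10, limma adjusted p = 0.0228). It stood at 11.26 to 11.34 in controls, against 7.06 to 7.25 for Sox10, and which cells made it was not tested. The other genes of that list were called in neither fit. Sox10 differed by -0.16, Snap25 by -0.15, Chat by -0.04, Uchl1 by 0.49 and Tubb3 by 0.80. Without the block, the counts of fibroblast, chondrocyte and nerve markers were lower in most fits that left out 1 sample. The part of cell makeup in the values of the members was not tested.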

How the data were processed

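RNA of each sample was amplified and hybridized to 1 Affymetrix mouse genome array. The authors deposited log2 expression values made by RMA, which corrects background, quantile normalizes and summarizes probes per probe set. Tools listed in the submitters' processing notes are Affymetrix Expression Console 1.1, Partek 6.5 and RMA. RMA removes differences in overall brightness and compresses the folds of dim genes. After 64 controls were left out, 45037 probe sets were tested with limma 3.58.1 (lmFit and eBayes, R 4.3.3; 4 residual and 3.21 prior degrees of freedom), with group as the only term and a two-sided test. The fit was first tested on simulated data. By the platform annotation 34945 probe sets had 1 symbol, 932 had several and 9160 had none; 34741 were matched to RefSeq genes of GRCm38.p6, used for names and promoters only. With 6 arrays, their number limits the precision, and p-values measure the spread between pools of mice.

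Replicate numbers were taken to pair the samples because the deviations of same-numbered samples from their group means correlated in every pair (0.62, 0.36 and 0.34 for numbers 1, 2 and 3), a pairing read from the data. Unmatched numbers also correlated, at 0.18 for 48 hpi 2 with control 3 and 0.11 for 48 hpi 3 with control 2. Results with the block thus rest on a pairing chosen from the same values, and that fit had 2 residual degrees of freedom. All members were named; values per sample were given for those called in either fit and for Acta2, Myh11, Tagln, Cnn1, Des, Myocd and Srf; of the other lists, at most the 2 largest rises and falls were named. The members and all lists were chosen with earlier results of these data known.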

Additional observations from a re-analysis of the deposited data

How the results depend on the processing

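Against 0 members called higher and 2 called lower, the replicate block gave 3 and 5, and leaving out 1 sample at a time gave 0 to 1 higher and 0 to 0 lower; the 1 was Pdlim7 without control replicate 2. Without both samples numbered 1 the counts were 0 and 0, and without both numbered 3, an alternative chosen after seeing the data, 0 and 1. Median centring gave 1 and 1, cyclic loess 0 and 4, array weights 0 and 2, a variance trend 0 and 1, and leaving out dim probe sets 1 and 2. An unpaired Student's t-test gave 0 and 0 after adjustment and 2 and 4 without it. Among the other lists, 3 mitosis genes and 1 macrophage marker passed that t-test after adjustment. The second brightest probe set, which 22 members had, gave 1 and 0, and the mean of a gene's probe sets 3 and 2. The median difference of the members ran from -0.29 to 0.29 when 1 sample was left out. The cause was not tested, except that leaving out samples also lowers the degrees of freedom. Across the alternatives 17 members changed sign at least once, and 0 of these were called with or without the block. The block changed no call of a member other than Cnn2, Cald1, Pdlim7, Sorbs2, Prkg1 and Pln, whose adjusted p over all alternatives reached 0.458, 0.491, 0.293, 0.372, 0.246 and 0.647 in that order. The number of arrays, 3 a group, and the median within-group SD of 0.43 limit the precision.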

Other observations

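Matrix genes of wound repair, which fibroblasts and activated muscle cells both make, were measured in the same arrays. Of 11 such genes, 2 rose and 0 fell, where 4.97% and 1.24% of all genes did. Fitted with the block, 5 were called higher and 1 lower, where 8.77% and 4.64% of all genes were. The gene that fell with it was Fap, a surface protease of activated fibroblasts (-0.64 ± 0.25, limma adjusted p = 0.225, and 0.0171 with the block), and those that rose beside Tnc and Thbs1 were Postn, Col1a1 and Tgfb1. Tnc, tenascin C, measured 10.44, 10.94 and 11.18 in 48 hpi samples, against 8.52, 8.63 and 8.04 in controls (2.46 ± 0.23, limma adjusted p = 0.00223). Thbs1, thrombospondin 1, measured 9.44, 9.49 and 9.13 in 48 hpi samples, against 8.40, 7.92 and 8.09 in controls (1.21 ± 0.15, limma adjusted p = 0.00826). These 2 of the 11 genes were apart and higher at 48 hpi, where 17.2% of all genes were. The other 9 overlapped between the groups, as did Acta2, Actg2 and Tagln, whereas 4 members were apart and higher.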
